A study of Mus musculus with 4 samples.

Results

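The MYC, MAX and MXD network was described in RAW264.7 cells, a mouse macrophage line, through 10 genes taken from a fixed list of symbols (Myc, Mycl, Max, Mxd1, Mxd3, Mxd4, Mnt, Mga, Mlx and Mlxip), all of which were among the 22554 genes found once in each deposited table. The study profiled messenger RNA in 4 libraries: 2 of RAW264.7 cells kept alone (mock) and 2 from coculture with CT26, a colon carcinoma line of the mouse. No genetic change, drug or dose is named for any group. The sources used here do not give the duration of coculture, its medium or the way the macrophages were parted from the tumour cells. RAW264.7 is a single transformed line, so the libraries are cultures of 1 line and not separate animals, and the labels do not say whether the replicates are separate cultures.

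The proteins of this network are transcription factors that bind DNA in pairs. MYC, MYCL and MYCN pair with MAX at E-box sequences and drive genes of growth, ribosome production and metabolism. The MXD proteins, MXI1 and MNT compete for MAX at the same sequences and recruit SIN3 and histone deacetylase corepressors, while MGA brings MAX into a Polycomb complex. A parallel branch is built on MLX, which pairs with the glucose-sensing factor MondoA, the product of Mlxip, and with some MXD proteins and MNT. In macrophages, Myc is known as an early gene of proliferation and activation.

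The canonical E-box, CACGTG, reads the same on both strands and was searched in the 250 bases upstream of the start of each gene. RefSeq promoters of build GRCm38.p6 were matched for 9 of the 10 members (not Myc). The motif was found in 3 of the 9, Mxd4, Mnt and Mlx, at 219, 123 and 40 bases upstream of the start, against 6.02% of 32851 promoters of the same length. A match is a description of the letters and not a bound site. The 3 promoters that hold the motif, with the motif in capitals, and that of Mxd3, which does not hold it, are shown because the antagonist genes among them are those with the largest lower values in coculture.
Mxd4 (chr5:34187711-34187960, minus strand): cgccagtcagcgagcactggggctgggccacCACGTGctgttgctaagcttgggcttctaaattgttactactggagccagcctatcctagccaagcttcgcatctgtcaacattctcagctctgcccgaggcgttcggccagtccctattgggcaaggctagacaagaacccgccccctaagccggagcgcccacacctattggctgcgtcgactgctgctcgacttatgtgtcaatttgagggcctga
Mnt (chr11:74830674-74830923, plus strand): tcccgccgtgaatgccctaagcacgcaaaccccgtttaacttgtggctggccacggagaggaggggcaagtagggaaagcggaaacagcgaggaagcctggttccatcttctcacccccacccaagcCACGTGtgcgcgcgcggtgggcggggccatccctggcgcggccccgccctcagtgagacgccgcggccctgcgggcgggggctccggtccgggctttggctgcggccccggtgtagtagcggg
Mlx (chr11:101087040-101087289, plus strand): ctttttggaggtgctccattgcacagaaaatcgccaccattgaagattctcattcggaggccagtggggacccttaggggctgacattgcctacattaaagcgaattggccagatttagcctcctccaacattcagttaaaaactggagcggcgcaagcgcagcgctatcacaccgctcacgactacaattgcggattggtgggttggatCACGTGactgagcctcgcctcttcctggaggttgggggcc
Mxd3 (chr13:55329732-55329981, minus strand): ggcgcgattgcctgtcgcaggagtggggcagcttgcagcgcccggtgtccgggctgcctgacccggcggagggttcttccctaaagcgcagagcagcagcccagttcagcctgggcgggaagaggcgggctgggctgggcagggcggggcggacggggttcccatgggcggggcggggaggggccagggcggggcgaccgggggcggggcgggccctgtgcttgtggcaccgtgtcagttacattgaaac

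Values are FPKM (fragments scaled to gene length and library total, as deposited by the authors), so genes can be compared with each other within a library. Mock 1 and coculture 1 make up pair 1, and mock 2 and coculture 2 make up pair 2, each pair with its own deposited table. The tables may have been normalized separately, which levels set across pairs would carry. Every difference is the coculture value less the mock value after the transform log2(FPKM + 1), on which low genes change less than their fold. Errors after ± are moderated standard errors from limma (n = 2 pairs). P-values come from limma, fitted with a block for the pair, and were adjusted by Benjamini-Hochberg over all 10202 tested genes, those that reached 1 FPKM in 2 or more libraries. From the steps of the low values, the depth was estimated at 12100000 to 16000000 reads per library. Between 37.9% and 42.9% of the low values came out whole within 0.05 reads, so this is a rough estimate. The RNA is bulk, so fewer cells with a transcript and less of it per cell cannot be told apart.

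Myc showed the largest difference among the members. Its level was 5.16 FPKM in mock 1, 1.03 FPKM in mock 2, 43.3 FPKM in coculture 1 and 36.9 FPKM in coculture 2. Both coculture libraries were above both mock libraries, by 8.39 times in pair 1 and 35.8 times in pair 2. The mock libraries differed from each other by a factor of 5.003 and the coculture libraries by 1.17 times, so the spread between pairs came mostly from the mock level. Myc in mock 2 rested on an estimated 43.7 reads, against 212 in mock 1 and 1212 to 1882 in coculture. The difference was 3.53 ± 0.35 (95% interval 2.59 to 4.48), with 2.85 in pair 1 and 4.22 in pair 2. It did not pass over all genes (limma adjusted p = 0.071), but passed after median centring of each library (limma adjusted p = 0.017), and the adjusted p ranged from 0.017 to 0.96 over the 14 settings tried.

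None of the 9 tested members was called, against 0.127% of all tested genes. At an unadjusted limma p under 0.05, Myc was higher, against 5.26% of all genes, and Mxd3, Mxd4 and Mnt were lower, against 9.45%. With 2 libraries a group, a permutation of the libraries cannot give a two-sided p below 0.333, so no test on a single gene was made outside the fit over all genes.

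**Figure D1:**
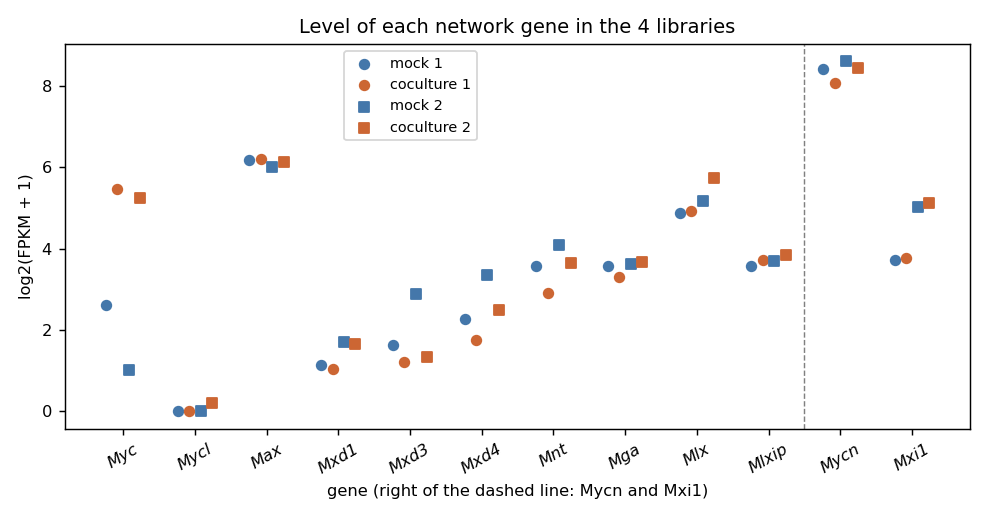
Level of each network gene on the log2(FPKM + 1) scale (vertical axis) in mock (blue) and coculture (orange), with circles for pair 1 and squares for pair 2. Myc is the gene whose coculture points (43.3 and 36.9 FPKM) stand farthest above the mock points (5.16 and 1.03 FPKM), and Mycn, right of the dashed line, is above every member in all 4 libraries.

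Mycl, the MYC paralogue first found in lung carcinoma, was listed at 0 in mock 1, mock 2 and coculture 1 and at 0.156 FPKM in coculture 2, an estimated 7.62 reads. It was the 1 member below the filter and was not tested. Mycn, the paralogue known from neuroblastoma and not a member, was far more abundant than Myc. Mock 1 and 2 held 340 and 388 FPKM of Mycn and coculture 1 and 2 held 268 and 349 FPKM, above at least 99.2% of all genes in each library. Its level was 65.9 and 376 times that of Myc in mock 1 and 2, and 6.18 and 9.46 times in coculture 1 and 2. The groups overlapped, and the difference was -0.25 ± 0.13 (95% interval -0.59 to 0.10; limma adjusted p = 0.44). Summed over Myc and Mycn, the level was 345 FPKM in mock 1 and 311 FPKM in coculture 1, and 389 FPKM in mock 2 and 386 FPKM in coculture 2. Thus the summed level in coculture was 0.901 times mock in pair 1 and 0.992 times in pair 2, while the part contributed by Myc went from 1.495% to 13.9% and from 0.265% to 9.56%.

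Max, the shared partner, was the most abundant member in all 4 libraries. Pair 1 held 72.1 FPKM in mock against 72.4 FPKM in coculture, and pair 2 held 63.7 against 68.7 FPKM. The groups overlapped, and the difference was 0.06 ± 0.11, with a 95% interval of -0.24 to 0.35 (limma adjusted p = 0.84). The ratio of Myc to Max was 0.0715 in mock 1, 0.0162 in mock 2, 0.598 in coculture 1 and 0.536 in coculture 2. In rank among the 10 members, Myc placed at 6 and 9 in mock 1 and 2, and placed at 2 and 3 in coculture 1 and 2.

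The genes of the MAX-binding repressors Mxd3, Mxd4 and Mnt were lower in coculture in both pairs, without passing the test. Mxd3, a family member expressed in dividing cells, had levels of 2.11 and 6.40 FPKM in the mock libraries (replicates 1 and 2) and of 1.33 and 1.51 FPKM in the coculture libraries. Both coculture libraries were below both mock libraries, although the mock libraries differed by 3.04 times. The difference was -0.99 ± 0.33 (limma adjusted p = 0.31), with -0.42 in pair 1 and -1.56 in pair 2, or -0.36 without mock 2 and -1.61 without mock 1, both unblocked and across the tables. Mxd3 rested on an estimated 43.3 to 236 reads. In the GENCODE M21 annotation, 105 of its 2369 exon bases overlap Prelid1 on the other strand. Prelid1 stood at 238 to 281 FPKM, and the sources used here do not say whether the counting used strand.

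Mxd4, associated with differentiating and resting cells, had levels of 3.81 and 9.20 FPKM in the mock libraries and of 2.35 and 4.65 FPKM in the coculture libraries. It was lower within each pair, but coculture 2 was above mock 1, so the groups overlapped. The difference was -0.69 ± 0.18 (limma adjusted p = 0.25), with -0.52 and -0.85 in the pairs, or -0.15 without mock 2 and -1.23 without mock 1, unblocked. Mnt, a broadly expressed MYC antagonist, had levels of 10.9 and 15.9 FPKM in the mock libraries and of 6.54 and 11.6 FPKM in the coculture libraries. It too was lower within each pair, with coculture 2 above mock 1. The difference was -0.54 ± 0.15 (limma adjusted p = 0.26), with -0.66 and -0.43 in the pairs, or -0.18 without coculture 1 and -0.91 without coculture 2, unblocked.

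Mxd1, known for its induction when myeloid cells differentiate, was low and close within each pair. Its level was 1.20 FPKM in mock against 1.07 FPKM in coculture in pair 1, and 2.26 against 2.14 FPKM in pair 2. The difference was -0.07 ± 0.20, with a 95% interval of -0.59 to 0.45 (limma adjusted p = 0.88). Mxi1, which encodes a further MXD protein and is not a member, stood at 12.3 and 12.8 FPKM in mock 1 and coculture 1 and at 31.9 and 34.1 FPKM in mock 2 and coculture 2. The levels of Mxi1 thus followed the deposited table more than the group, and the difference was 0.07 ± 0.12 (limma adjusted p = 0.81). Summed over Mxd1, Mxd3, Mxd4 and Mnt, the level was 18.0 FPKM in mock 1 against 11.3 FPKM in coculture 1, and 33.8 FPKM in mock 2 against 19.9 FPKM in coculture 2. The ratio of Myc to this sum was 0.286 and 0.0305 in mock 1 and 2, below 1, and 3.83 and 1.86 in coculture 1 and 2, above 1. Adding Mxi1 to the sum was a choice made after seeing the data. The ratio was then 0.170 and 0.0157 in mock 1 and 2, 1.80 in coculture 1 and 0.683 in coculture 2. It was thus above 1 in coculture 1 alone. Neither ratio counts Mycn. Myc and Mycn together held 345 and 389 FPKM in mock 1 and 2, and 311 and 386 FPKM in coculture 1 and 2. That was above the sum of the repressor genes, with or without Mxi1, in every library.

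**Figure D2:**
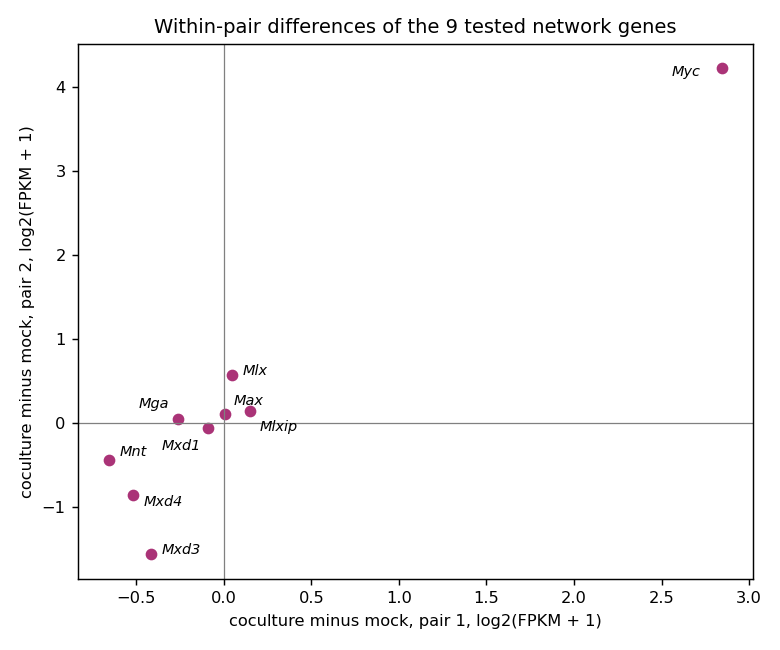
Difference in log2(FPKM + 1), coculture minus mock, in pair 1 (horizontal axis) and pair 2 (vertical axis), 1 point for each of the 9 tested members. Myc lies alone at 2.85 and 4.22, and Mxd3, Mxd4 and Mnt lie farthest below 0 on both axes. The other members lie near 0 on both axes except Mlx at 0.58 in pair 2 and Mga at -0.26 in pair 1.

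Mga, a large protein that joins MAX to Polycomb complex PRC1.6, stood at 10.8 and 8.86 FPKM in mock 1 and coculture 1 and at 11.3 and 11.8 FPKM in mock 2 and coculture 2. It was lower in pair 1 and higher in pair 2, with a difference of -0.10 ± 0.16 (limma adjusted p = 0.79). Mlx, the MAX-like partner, was more abundant than every other member but Max in both mock libraries and coculture 2. In pair 1 mock held 28.4 FPKM against 29.3 FPKM in coculture, and in pair 2 mock held 35.0 FPKM against 52.7 FPKM. The higher value was thus in coculture 2, with differences of 0.04 in pair 1 and 0.58 in pair 2 and 0.31 ± 0.17 over both (limma adjusted p = 0.46). In GENCODE M21, 385 of the 1999 exon bases of Mlx overlap Psmc3ip on the other strand, which stood at 22.7 to 28.7 FPKM. Mlxip, encoding MondoA, stood at 11.0 and 12.3 FPKM in mock 1 and coculture 1 and at 11.9 and 13.3 FPKM in mock 2 and coculture 2. Both coculture libraries were above both mock libraries by a small margin, with a difference of 0.15 ± 0.14 (limma adjusted p = 0.65). Mlxipl, encoding the related factor ChREBP and not a member, was listed at 0 in all libraries but mock 1, at 0.0357 FPKM.

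Over the members, the groups did not overlap for Myc and Mlxip, which were higher in coculture, against 10.3% of all tested genes, and for Mxd3, which was lower, against 21.5%. Of the 9 tested members, 4 were higher in both pairs, against 21.5% of all tested genes, 4 were lower in both pairs, against 42.2%, and 1 went both ways. On the log2(FPKM + 1) scale, Myc was the 1 member at least 2-fold higher in both pairs, against 1.02% of all tested genes. None was 2-fold lower in both on this scale, against 0.353%. Genes of low level could change 2-fold in FPKM without being counted.

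As a description of the balance among MAX partners, FPKM were summed over Myc, Mycl, Mxd1, Mxd3, Mxd4, Mnt and Mga. The sum was 34.0 and 46.1 FPKM for mock 1 and 2, and 63.4 and 68.7 FPKM for coculture 1 and 2. Myc made up 15.2% of it in mock 1, 2.24% in mock 2, 68.2% in coculture 1 and 53.7% in coculture 2. Mnt made up 32.0% and 34.6% of the sum in the mock libraries and 10.3% and 16.8% in the coculture libraries. With Mycn and Mxi1 added, a choice made after seeing the data, the sum was 386 and 466 FPKM for mock 1 and 2 and 344 and 452 FPKM for coculture 1 and 2, and Myc made up 1.34% and 0.221% in mock and 12.6% and 8.16% in coculture. Mycn then took 88.0% and 83.3% in mock and 77.8% and 77.2% in coculture. The shares are of transcripts per length and not of protein.

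**Figure D3:**
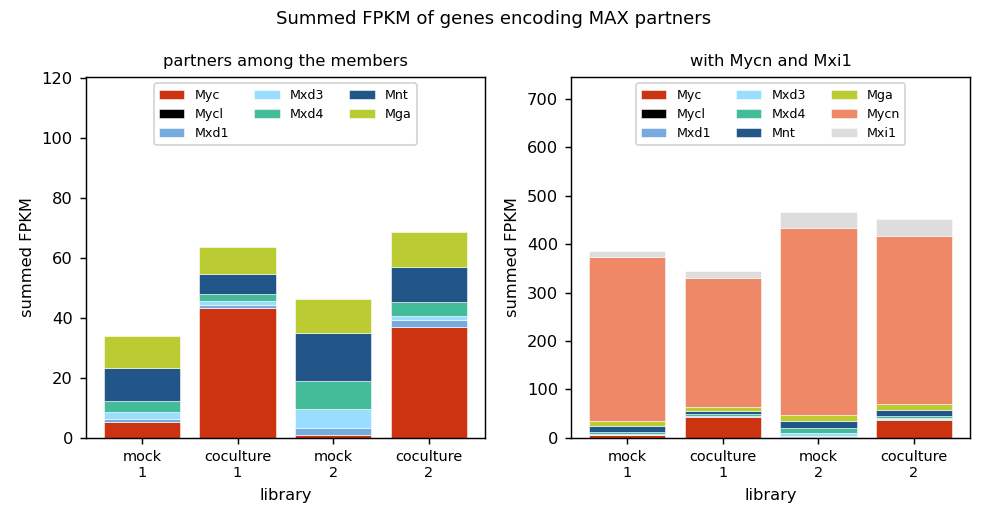
Summed FPKM (vertical axis) of the genes encoding MAX partners in each library, stacked by gene, for the partners among the members (left) and with Mycn and Mxi1 added (right). On the left Myc fills 68.2% and 53.7% of the coculture bars, and on the right Mycn fills at least 77.2% of every bar.

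Marker genes of tumour and other cell types were examined. No library of CT26 cells alone was among the 4, so the level of these markers in CT26 is not known here. Of 12 epithelial or carcinoma markers, 6 were listed at 0 in every library, among them Epcam and Krt18, and none reached 1 FPKM in any library. Their summed level was 0.279 and 0 FPKM in mock 1 and 2 and 0.252 and 0.102 FPKM in coculture 1 and 2. Of 12 mesenchymal markers, 2 reached 1 FPKM, S100a4 and Tagln, neither of which was higher in coculture by more than 0.01 in either pair. S100a4 stood at 3127 and 3115 FPKM in the mock libraries. Of the other 10, Acta2 had 0.402 and 0.099 FPKM in the mock libraries against 0.727 and 0.572 FPKM in the coculture libraries, and Pdgfrb 0.0241 and 0.094 against 0.0797 and 0.166 FPKM, while Sparc and Cav1 were listed at 0 in pair 2 and were lower in coculture in pair 1. These 10 summed to 1.08 and 0.266 FPKM over the mock libraries and 1.15 and 0.766 FPKM over the coculture libraries. The part of tumour cell RNA in the level of Myc was not tested. The 6 lymphoid markers summed to at most 0.227 FPKM in any library. The 6 granulocyte markers summed to 1.44 and 0.162 FPKM over the mock libraries and 2.41 and 2.73 FPKM over the coculture libraries. Most of this sum was S100a8, with 1.33 and 0.162 FPKM in the mock libraries and 2.20 and 2.50 FPKM in the coculture libraries. S100a9, Ly6g and Mpo were listed at 0 in every library, and Elane and Camp did not exceed 0.206 FPKM. All 10 macrophage markers were tested and none was called. At an unadjusted limma p under 0.05, 2 were higher (Cd14 and Itgam) and 1 lower (Csf1r), against 5.26% and 9.45% of all tested genes. In both pairs 3 were higher and 4 lower, against 21.5% and 42.2% of all tested genes. Cd14, a coreceptor for bacterial lipopolysaccharide, had 607 and 354 FPKM in the mock libraries against 1732 and 1149 FPKM in the coculture libraries. Csf1r, the receptor gene for macrophage colony-stimulating factor, had 637 and 535 FPKM against 472 and 397 FPKM. Itgam had 35.5 and 79.8 FPKM in the mock libraries against 42.0 and 129 FPKM in the coculture libraries, and its groups overlapped. Lyz2, the most abundant of these markers, went both ways. Its level was 7088 FPKM in mock 1 against 6585 FPKM in coculture 1, and 3529 FPKM in mock 2 against 10287 FPKM in coculture 2.

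Genes known to be activated by MYC were examined as a list of 52 nucleolar, translational and growth genes, all of which were tested. None was called, and at an unadjusted limma p under 0.05, 3 were higher (Odc1, Rrp9 and Nop16), against 5.26% of all tested genes, and 1 lower (Slc29a2), against 9.45%. The list's median difference was 0.03, beside -0.07 over all tested genes, with 0.08 in pair 1 and -0.06 in pair 2. Higher in both pairs were 19 genes (36.5%) and lower in both were 13 (25.0%), against 21.5% and 42.2% of all tested genes. The median was -0.02 after rescaling to a common total and 0.10 after median centring.

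Odc1, the ornithine decarboxylase gene of polyamine synthesis and a classical MYC target, stood apart from the list. Pair 1 held 134 FPKM in mock against 849 FPKM in coculture, and pair 2 held 42.4 against 610 FPKM. Both coculture libraries were above both mock libraries, against 10.3% of all tested genes. Odc1 differed by 3.24 ± 0.30 (limma adjusted p = 0.062), or 2.66 and 3.81 in the pairs. It passed after median centring (limma adjusted p = 0.015) and after quantile normalization (limma adjusted p = 0.0499). Those settings called 103 and 46 genes over all genes, against 13 in the main fit. Odc1 passed in no other setting. Its limma adjusted p was 0.11 without the variance trend, 0.25 with no filter and 0.88 without the replicate block. The differences of the other 51 genes lay between -0.53 and 0.53, and 49 of them were under 0.5 in size. Rrp9, a component of a small nucleolar ribonucleoprotein, differed by 0.53 ± 0.12 (limma adjusted p = 0.21) and Nop16, a nucleolar gene chosen after its values were seen, by 0.32 ± 0.11 (limma adjusted p = 0.32). The transferrin receptor gene Tfrc differed by 0.39 ± 0.20, with 0.04 in pair 1 and 0.74 in pair 2. The nucleoside transporter gene Slc29a2 differed by -0.53 ± 0.16 (limma adjusted p = 0.29). The nucleolar genes Ncl and Npm1 and the cyclin-dependent kinase gene Cdk4, chosen after their values were seen, differed by 0.01 ± 0.14, 0.16 ± 0.13 and -0.16 ± 0.12.

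**Figure D4:**
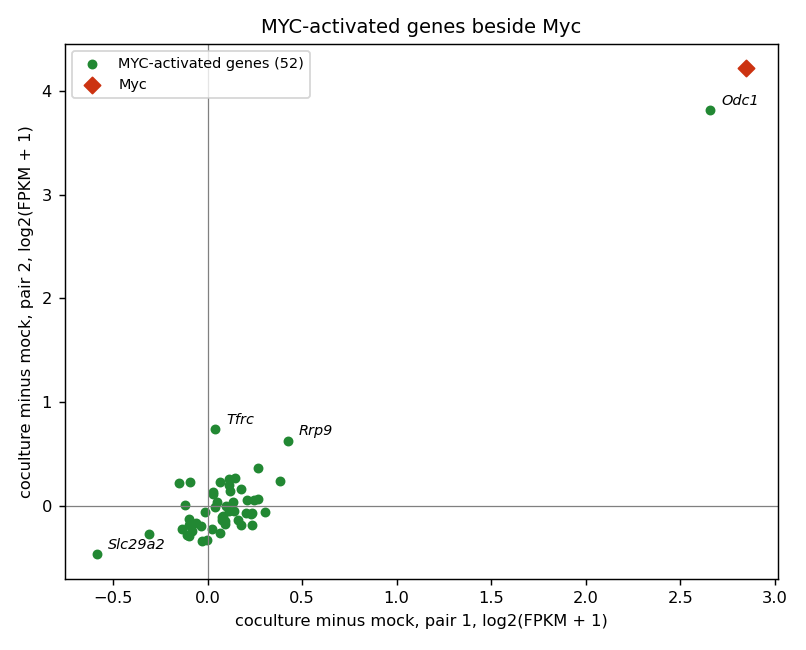
Difference in log2(FPKM + 1), coculture minus mock, in pair 1 (horizontal axis) and pair 2 (vertical axis) for the 52 MYC-activated genes (green) and Myc (red diamond). Odc1 lies near Myc at 2.66 and 3.81, and the other 51 genes lie between -0.53 and 0.53 as means of both pairs.

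By the distance between the differences in both pairs, Odc1 was also the gene nearest to Myc among all tested genes that averaged 2 FPKM or more, at 0.449 log2 units. It was followed by Rgs16, a regulator of G protein signalling, Il1rn, the interleukin-1 receptor antagonist gene, Socs3, a feedback inhibitor of cytokine signalling, and Upp1, the uridine phosphorylase gene, at 0.715 to 1.37. Rgs16 went from 53.3 to 333 FPKM and from 1.44 to 71.7 FPKM. Socs3, at 2.85 in pair 1 and 3.03 in pair 2, was the 1 of these genes called over all genes (limma adjusted p = 0.027). The genes nearest to Mxd3 were Fgd2, Camk1, Man2b1, Atf3 and Mpeg1, at 0.0805 to 0.130. Their differences lay between -0.49 and -0.32 in pair 1 and between -1.51 and -1.43 in pair 2. They were chosen for nearness to the values of Mxd3, so being lower mainly in pair 2 was fixed by that choice. The genes nearest to Myc were chosen in the same way, so their being higher in coculture was also fixed by the choice. Likeness over 2 pairs is a description only.

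Genes that MYC is known to repress were few, and 4 of 6 listed were tested. In both pairs 2 were higher, against 21.5% of all tested genes, and 1 lower, against 42.2%. None was called, and 2 (Cdkn1a and Gadd45a) were higher at an unadjusted limma p under 0.05, against 5.26%. The median was 0.27 (0.65 in pair 1 and 0.18 in pair 2), beside -0.07 over all tested genes. The cell cycle inhibitor gene Cdkn1a had 157 and 146 FPKM in the mock libraries and 306 and 204 FPKM in the coculture libraries, a difference of 0.72 ± 0.16 (limma adjusted p = 0.21). The stress gene Gadd45a had 0.904 and 0.570 FPKM in the mock libraries and 8.91 and 1.47 FPKM in the coculture libraries, a difference of 1.52 ± 0.45 (limma adjusted p = 0.28). Cdkn1b, encoding the cell cycle inhibitor p27, differed by -0.43 ± 0.19 (limma adjusted p = 0.39).

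On the MLX branch, the 3 listed MondoA and MLX targets were all tested and none was called. Their median was -0.39, beside -0.07 over all tested genes. At an unadjusted limma p under 0.05, 1 was lower, against 9.45% of all tested genes. That 1 was Txnip, which encodes an inhibitor of thioredoxin and glucose uptake. Txnip stood at 92.0 and 51.7 FPKM in mock 1 and coculture 1 and at 177 and 128 FPKM in mock 2 and coculture 2. It was lower within each pair while coculture 2 was above mock 1, and the difference was -0.64 ± 0.14 (limma adjusted p = 0.20). Without coculture 1, across the tables and with no block, it was -0.00083, and without coculture 2 it was -1.29. The arrestin genes Arrdc4 and Arrdc3 went both ways, at -0.07 and 0.44 for Arrdc4 and -0.89 and 0.11 for Arrdc3 in pair 1 and 2.

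Among 17 genes of MYC coactivators and partners, none was called, and 0 were higher and 2 lower at an unadjusted limma p under 0.05, against 5.26% and 9.45% of all tested genes. In both pairs 10 were lower (58.8%, against 42.2%) and 2 higher (against 21.5%). The median was -0.11, beside -0.07 over all tested genes. The acetyltransferase genes Ep300 and Kat2a differed by -0.42 ± 0.13 and -0.32 ± 0.11 and were those 2 genes, the ubiquitin ligase gene Mycbp2 by -0.39 ± 0.17 and the chromatin remodelling gene Bptf by -0.29 ± 0.13. Of 15 genes of SIN3 and histone deacetylase corepressors used by MXD and MNT, none was called and 2 (Ing1 and Ncor1) were lower at an unadjusted limma p under 0.05, against 9.45% of all tested genes. In both pairs 10 were lower (66.7%, against 42.2%) and 1 higher (against 21.5%). The median was -0.17, beside -0.07 over all tested genes. Ing1, a SIN3 complex subunit gene, differed by -0.52 ± 0.13, the corepressor genes Ncor1 and Sin3a by -0.35 ± 0.13 and -0.31 ± 0.15, and Sap18 by -0.55 ± 0.28, of which -0.07 in pair 1 and -1.04 in pair 2.

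The partners of Mga in PRC1.6 had 9 of 10 genes tested, with none called and none at an unadjusted limma p under 0.05. In both pairs 5 were lower (55.6%, against 42.2% of all tested genes) and 1 higher (against 21.5%). The median was -0.23, beside -0.07 over all tested genes. E2f6, Ring1, Cbx3 and L3mbtl2, all subunits of this complex, differed by -0.31 ± 0.15, -0.30 ± 0.14, -0.28 ± 0.12 and -0.25 ± 0.14. Among 18 genes that set the stability of MYC protein, none was called, and 2 were higher and 3 lower at an unadjusted limma p under 0.05, against 5.26% and 9.45% of all tested genes. In both pairs 14 were lower (77.8%, against 42.2%) and 3 higher (against 21.5%). The median was -0.16, beside -0.07 over all tested genes. The list was not split by whether a gene raises or lowers MYC stability, so these values carry no direction for it.

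The genes of the kinases PIM1 and PIM3, which phosphorylate MYC, were higher in both pairs. Pim1 had 5.89 FPKM in mock 1 against 82.2 FPKM in coculture 1, and 7.48 against 26.4 FPKM in pair 2, a difference of 2.64 ± 0.47 (limma adjusted p = 0.16). Pim3 had 17.1 against 34.1 FPKM in pair 1 and 14.9 against 26.0 FPKM in pair 2, a difference of 0.86 ± 0.13 (limma adjusted p = 0.13). Both coculture libraries were above both mock libraries for each of these genes, a separation across the tables that 10.3% of all tested genes showed. The ubiquitin ligase subunit gene Fbxl14 differed by -0.53 ± 0.14 and the mitotic kinase gene Plk1 by -0.49 ± 0.11 (limma adjusted p = 0.26 and 0.22), and the third gene lower at the unadjusted bound, Skp2, a ubiquitin ligase subunit gene chosen after its values were seen, by -0.48 ± 0.14 (limma adjusted p = 0.28).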

How the data were processed

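Messenger RNA was measured in 2 mock and 2 coculture libraries, grouped by their titles. The authors deposited FPKM, with 1 table for each replicate number (23427 and 25239 rows). Per the submitters' processing notes, the tools were Trim Galore, Subread and featureCounts, and the build is named there as hg38, which is human, while the gene symbols are written as for the mouse. Tool versions, gene lengths and library totals are absent from the sources used here, so no gene coordinates are given beyond RefSeq's own promoter windows. In the first table, 23 unnamed rows and 287 rows of 106 repeated names were left out.

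The 22554 symbols present a single time in both tables were joined and not rescaled. The 10202 genes that reached 1 FPKM in 2 or more libraries were tested on log2(FPKM + 1) in limma 3.58.1 (R 4.3.3; trended prior variance, two-sided, Benjamini-Hochberg adjusted p under 0.05). The pair was a block because only differences within a table are comparable, and libraries of a pair deviated together (correlation across genes 0.76). The fit has few degrees of freedom (1 residual beside 3.43 from the prior), and its p-values rest on the spread of these 4 libraries alone, which could be technical. No count model was run, since the deposited unit is FPKM. Depth was estimated from the steps of low FPKM with GENCODE M21 exon lengths, so read numbers are approximate.

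The members and lists were chosen with earlier results of these data known. Named were the members, the other network genes, the MondoA and MLX targets, up to 4 genes per other list (largest mean difference, same sign in each pair), and the 5 genes nearest to Myc and Mxd3. Lists are described by counts and medians, with no set test. Other settings tried were a pseudocount of 0.1 or 0.5, a minimum of 0 or 5 FPKM, scaling every library to 1 total, median centring, quantile normalization, no variance trend, no replicate block and each library left out.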

Additional observations from a re-analysis of the deposited data

How the results depend on the processing

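Of 114 alternative values for the 9 tested members, 108 kept their direction and their side of the threshold. No member was called in the main fit, so keeping the side meant staying uncalled. No gene at all was called without the filter or with 1 library left out, so no member could be called there. With every library kept, changing the filter, variance trend or block does not alter a gene's difference. Myc stayed higher in every setting, between 2.73 and 4.33. It passed after median centring, where 1 member and 1 list gene (Odc1) were called. Odc1 was also the 1 list gene called after quantile normalization. The number of genes called over all genes was 13 with the pair as a block (13 higher, 0 lower). It was 22 with a pseudocount of 0.1 (22 higher), 26 with at least 5 FPKM and 26 after rescaling (25 higher and 1 lower each), 103 after median centring (85 and 18) and 46 after quantile normalization (43 and 3). It was 1 without the variance trend (1 higher) and 1 without the replicate block (1 higher), and 0 with no filter (0 higher; 1620 at an unadjusted limma p under 0.05). It was 0 to 0 with any 1 library left out (178 to 513 at an unadjusted limma p under 0.05).

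Fits without 1 library cannot keep the block and compare across the tables. Over these 4 fits Max ran from -0.032 to 0.146, Mga from -0.290 to 0.084, Mlx from -0.10 to 0.72 and Mxd1 from -0.371 to 0.230, so each changed sign, and so did Arrdc3 (-1.03 to 0.25), Arrdc4 (-0.30 to 0.67), Cbx3 (-1.28 to 0.72), Cdkn1b (-1.17 to 0.32), Mxi1 (-0.60 to 0.75), Sap18 (-1.21 to 0.10) and Tfrc (-0.54 to 1.32). Mxd3, Mxd4 and Mnt stayed lower but ran from -1.61 to -0.36, -1.23 to -0.15 and -0.91 to -0.18, smallest in size without mock 2 for Mxd3 and Mxd4 and without coculture 1 for Mnt. Txnip ran from -1.29 to -0.00083, Mycbp2 from -0.78 to -0.0003, Ncor1 from -0.64 to -0.0564 and Sin3a from -0.59 to -0.0387, each smallest without coculture 1, and Rrp9 from 0.0748 without mock 2 to 0.98. List medians with 1 library left out ran from -1.02 to 0.92 for MYC-repressed genes, -0.39 to 0.014 for PRC1.6, -0.25 to -0.0897 for MYC stability, -0.21 to 0.21 for MYC-activated genes, -0.16 to -0.0564 for SIN3 corepressors, -0.12 to -0.0871 for coactivators and -1.03 to 0.25 for MondoA targets.

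After rescaling to a common total the medians were -0.17 for coactivators, -0.21 for MYC stability and -0.23 for SIN3 corepressors. After median centring they were -0.0493, -0.0920 and -0.105, and -0.17 for PRC1.6. After quantile normalization they were -0.0723 for coactivators and -0.0974 for MYC stability. Over all tested genes the median was -0.12 after rescaling, -0.0063 after median centring and -0.031 after quantile normalization. The median of MYC-repressed genes was -0.19 with at least 5 FPKM, where fewer genes were tested. The causes of these shifts were not tested. Without the replicate block the difference of Myc was the same 3.53 but its limma adjusted p was 0.81. Depth limits Mycl and Mxd3 and the mock level of Myc most.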
